A study of Homo sapiens with 6 samples.

Results

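The 52 genes described here encode the machinery that commits a cell to S phase and copies its DNA. They comprise the origin recognition complex, the licensing factors CDC6 and CDT1, the MCM helicase and its activators, cyclin E and the CDC7 kinase, the replicative polymerases, the sliding clamp and its loader, single-strand binding and flap processing factors, fork protection factors, enzymes of deoxynucleotide supply and the chromatin assembly factor. They were chosen by gene symbol from the 61806 genes of the deposited table, and each of the 52 symbols matched a single row. All were measured in 293T cells, an established line derived from human embryonic kidney. The cells of 3 libraries had received a plasmid labelled GFP, encoding a green fluorescent protein tag, and those of the other 3 libraries a plasmid labelled GFP-812. Both groups were transfected with the same lipid reagent (Lipo2000). The series title speaks of truncated NEK1, a protein kinase, and what the suffix in GFP-812 refers to is not explained in the labels. Neither the time from transfection to harvest nor the share of cells that took up plasmid is stated there. No label says that replicates were separate cultures, and p-values therefore reflect library-to-library spread that may be technical only.

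Before S phase, the origin recognition complex marks origins and, with CDC6 and CDT1, loads the ring of MCM2 to MCM7 onto DNA in an inactive form. The kinases of cyclin E and CDC7 with DBF4 then bring in CDC45 and the GINS complex, the helicase opens, and the polymerases follow with the PCNA clamp. Many of these genes are transcribed by E2F factors, which RB family proteins restrain. 293T cells carry the SV40 large T antigen, which binds RB proteins, so this restraint is known to be weakened in this line. Its strength in either group was not measured.

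A promoter feature that the choice by symbol did not use was more frequent among the members than among all promoters. Even so, 25 of the 45 members searched lacked it. The E2F consensus was searched as TTTCCCGC, TTTCGCGC, TTTGCCGC and TTTGGCGC on both strands, from 250 bases before to 50 after the annotated start, in RefSeq promoters of build GRCh38.p14. Of the 45 members with a promoter in that table, 20 held at least 1 match (44.4%), against 1164 of all 35116 promoters (3.31%). Members were counted with 1 promoter per symbol, while the 35116 were not reduced in this way. Nor were they matched to the members for expression or base composition. All 4 of the MCM2 to MCM7 genes with a promoter in the table held one, as did both licensing factors, while 1 of 6 origin recognition genes (ORC3) and 1 of 3 nucleotide supply genes (TYMS) did. Shown are 120 bases before to 30 after the start of CDC6 and CDT1, the 2 members that passed the test below, of MCM2, the first subunit of the helicase they load, and of RRM2, which lay on the other side. All 4 are on the plus strand, written 5′ to 3′, and capitals mark exact matches to the searched words. Near matches, such as tttggcggg in CDC6 and CDT1, were neither marked nor counted.
CDC6 (chr17:40287759-40287908): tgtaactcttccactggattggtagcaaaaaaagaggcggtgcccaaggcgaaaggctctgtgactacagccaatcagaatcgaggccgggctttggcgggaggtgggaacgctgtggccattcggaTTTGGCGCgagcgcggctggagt
CDT1 (chr16:88803669-88803818): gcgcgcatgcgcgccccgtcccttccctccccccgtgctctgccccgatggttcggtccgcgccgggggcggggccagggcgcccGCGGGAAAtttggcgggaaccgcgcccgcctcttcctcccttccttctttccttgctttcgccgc
MCM2 (chr3:127598291-127598440): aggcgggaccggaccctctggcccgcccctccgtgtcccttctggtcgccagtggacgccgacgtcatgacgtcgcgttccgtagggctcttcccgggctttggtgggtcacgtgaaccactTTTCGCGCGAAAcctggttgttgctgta
RRM2 (chr2:10122619-10122768): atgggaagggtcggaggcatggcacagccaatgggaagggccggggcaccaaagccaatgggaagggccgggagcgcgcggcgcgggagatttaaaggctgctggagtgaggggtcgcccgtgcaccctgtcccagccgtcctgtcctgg
In MCM2 the capitals hold a match on each strand that overlap, and the RRM2 promoter held none of the searched words.

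Libraries held 14255148 to 17613814 counts. NEK1 checked the labels: it stood at 493.7 to 562.7 FPKM (counts scaled to exonic length and to the library total) in the 3 GFP-812 libraries and at 3.82 to 3.99 FPKM in the 3 GFP libraries. The epithelial markers KRT8 and KRT18 were present (8.95 to 16.4 FPKM), whereas EPCAM lay near 1 FPKM (0.86 to 1.19) and CDH1 under it (0.53 to 0.74). Summed FPKM over marker lists were 2.73 to 3.36 (GFP-812) and 2.35 to 2.90 (GFP) for 6 fibroblast genes, 0.49 to 0.53 and 0.33 to 0.36 for 5 endothelial genes, 1.62 to 1.98 and 0.88 to 2.01 for 6 immune genes, with PTPRC listed at 0, and 2.12 to 2.47 and 1.96 to 2.30 for 6 kidney tubule genes, with UMOD listed at 0. GFP replicate 3 stood apart from its group: ribosomal protein genes took 6.05% of its counts, against 5.53% and 5.35% in GFP replicates 1 and 2 and 6.0% to 6.05% in the GFP-812 libraries. The part of these differences in the results below was not tested.

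All 52 members were expressed, and all passed the filter on low counts. Counts per gene and library ran from 252 (POLA2) to 8662. The clamp PCNA, which tethers polymerases to DNA, was the most abundant at 252.3 FPKM averaged over the 6 libraries, and POLA2, the regulatory subunit of polymerase alpha, the least at 3.30 FPKM. Between them, 9 members lay above 50 FPKM and 8 below 10 FPKM, with a median of 20.3 FPKM. Replicates were close: the median coefficient of variation of FPKM was 3.09% in GFP-812 and 2.91% in GFP libraries, with the widest spreads for POLA2 in GFP-812 (8.77%) and ORC5 in GFP (11.9%).

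**Figure D1:**
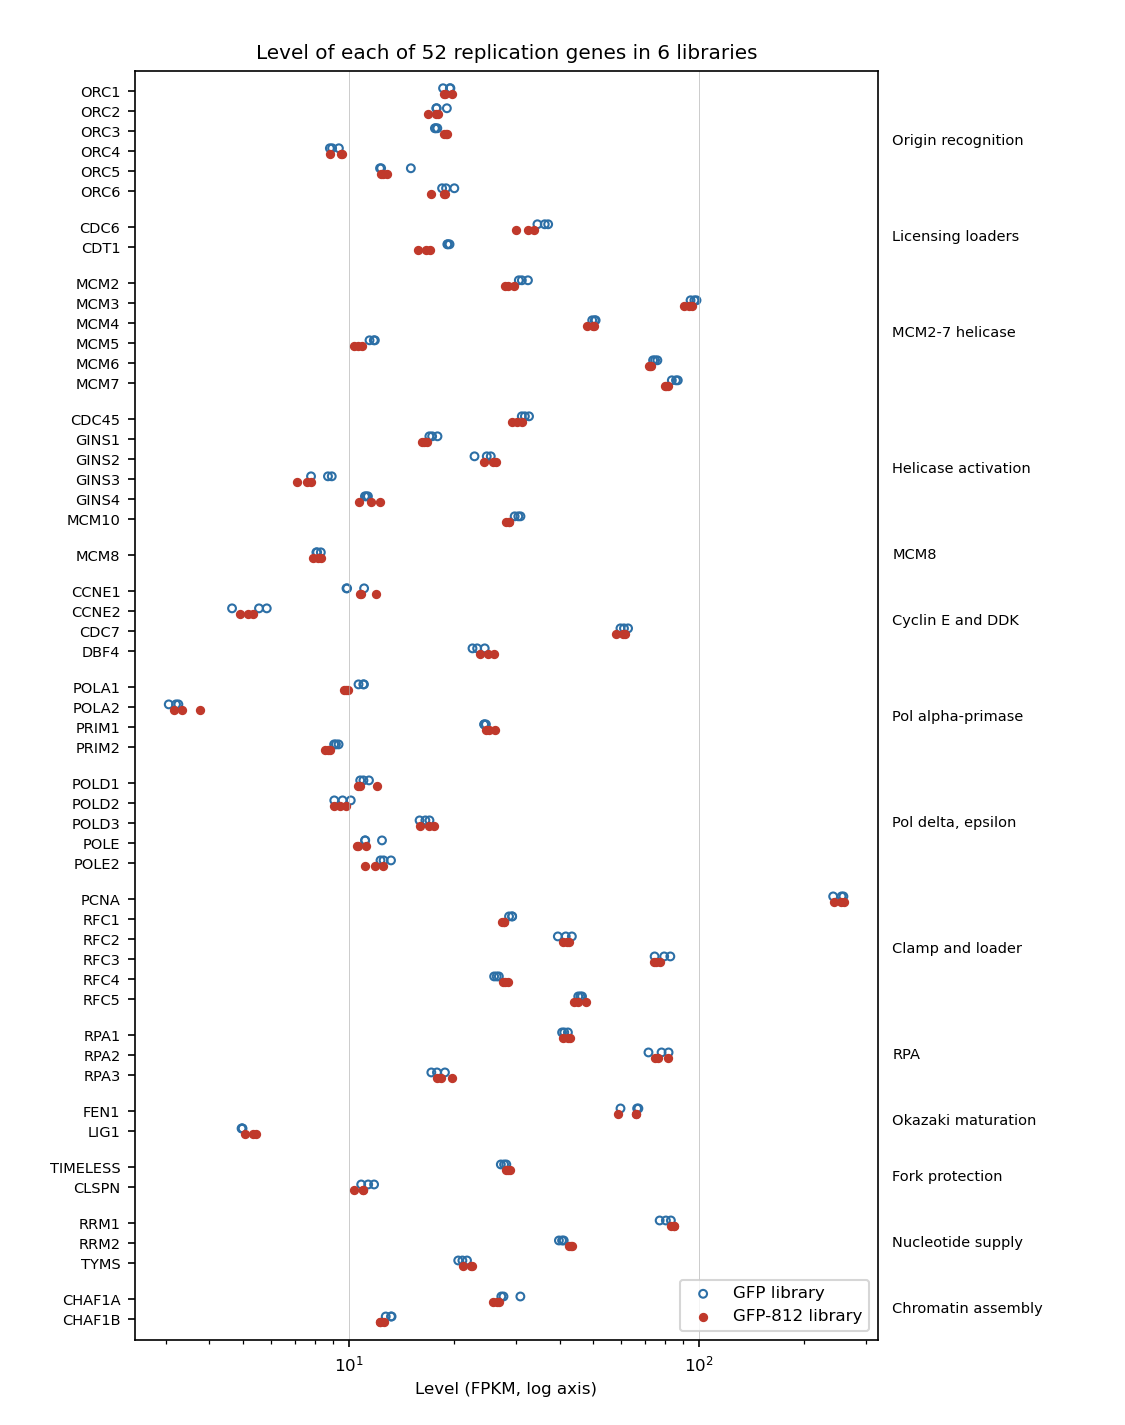
Level of each gene in FPKM on a log axis, with open blue circles for the 3 GFP libraries and filled red circles for the 3 GFP-812 libraries, grouped by role. Levels ran from 3.30 FPKM for POLA2 to 252.3 FPKM for PCNA on average, and for most genes the circles of the 2 groups lie close together.

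Of the 52 members, only the licensing factors CDC6 and CDT1 passed the test, and both were lower in GFP-812 cells. edgeR's quasi-likelihood test, at a Benjamini-Hochberg adjusted p under 0.05 over 16834 genes, called 2 of 52 members lower, 0 higher, and left 50 not past the threshold, and DESeq2 likewise called 0 higher. The share of members called lower, 3.85%, stood beside 2.67% of all genes tested called lower, 1.18% called higher and 3.84% called in either direction. Among the 8549 genes at or above the lowest member level, 6.29% were called. The members' share was thus near that of all genes and is not a result about replication genes as a group. At an unadjusted p under 0.05 there were 10 members (19.2%) against 16.1% of all genes. The median log2 fold change of members was -0.01, with 28 below 0 and 24 above, and that of all genes tested was 0.01. In bulk RNA, fewer cells in a phase of the cycle and less RNA per cell cannot be told apart.

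The changes were small in every role. Log2 fold changes lay between -0.21 (CDT1) and 0.14 (CCNE1), and 39 of 52 were under 0.1 in size. Standard errors ran from 0.037 to 0.098. For 51 members the 95% interval of the fold change lay inside a 25% rise and the matching 20% fall. Only that of CDT1 reached past this range, to a 20.8% fall. The range is an arbitrary choice for description, and some intervals ended just inside it. They reached a 24.9% rise for POLA2, a 23.5% rise for CCNE1 and a 19.2% fall for GINS3. The groups did not overlap in FPKM for 13 members lower in GFP-812 (25%, against 14.1% of 12984 genes at a mean of at least 1 FPKM) and for 5 members higher (9.62%, against 7.96%). The 12984 genes were not matched to the members for level and reach below the lowest member (3.30 FPKM). The gap between these shares is therefore not read as a result about the members. NEK1 took 0.807% to 0.919% of the counts in GFP-812 libraries, which lowers every other FPKM there. The 52 members together took 0.698% to 0.705% of counts in GFP-812 and 0.708% to 0.723% in GFP, and with NEK1 left out of the totals these ranges overlapped (0.704% to 0.712% against 0.708% to 0.723%). On TMM-scaled counts, which adjust for this, 12 of 52 members were lower and 7 of 52 higher without overlap. Beside them stood 12.5% and 10.05% of 12563 genes, likewise not matched for level.

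**Figure D2:**
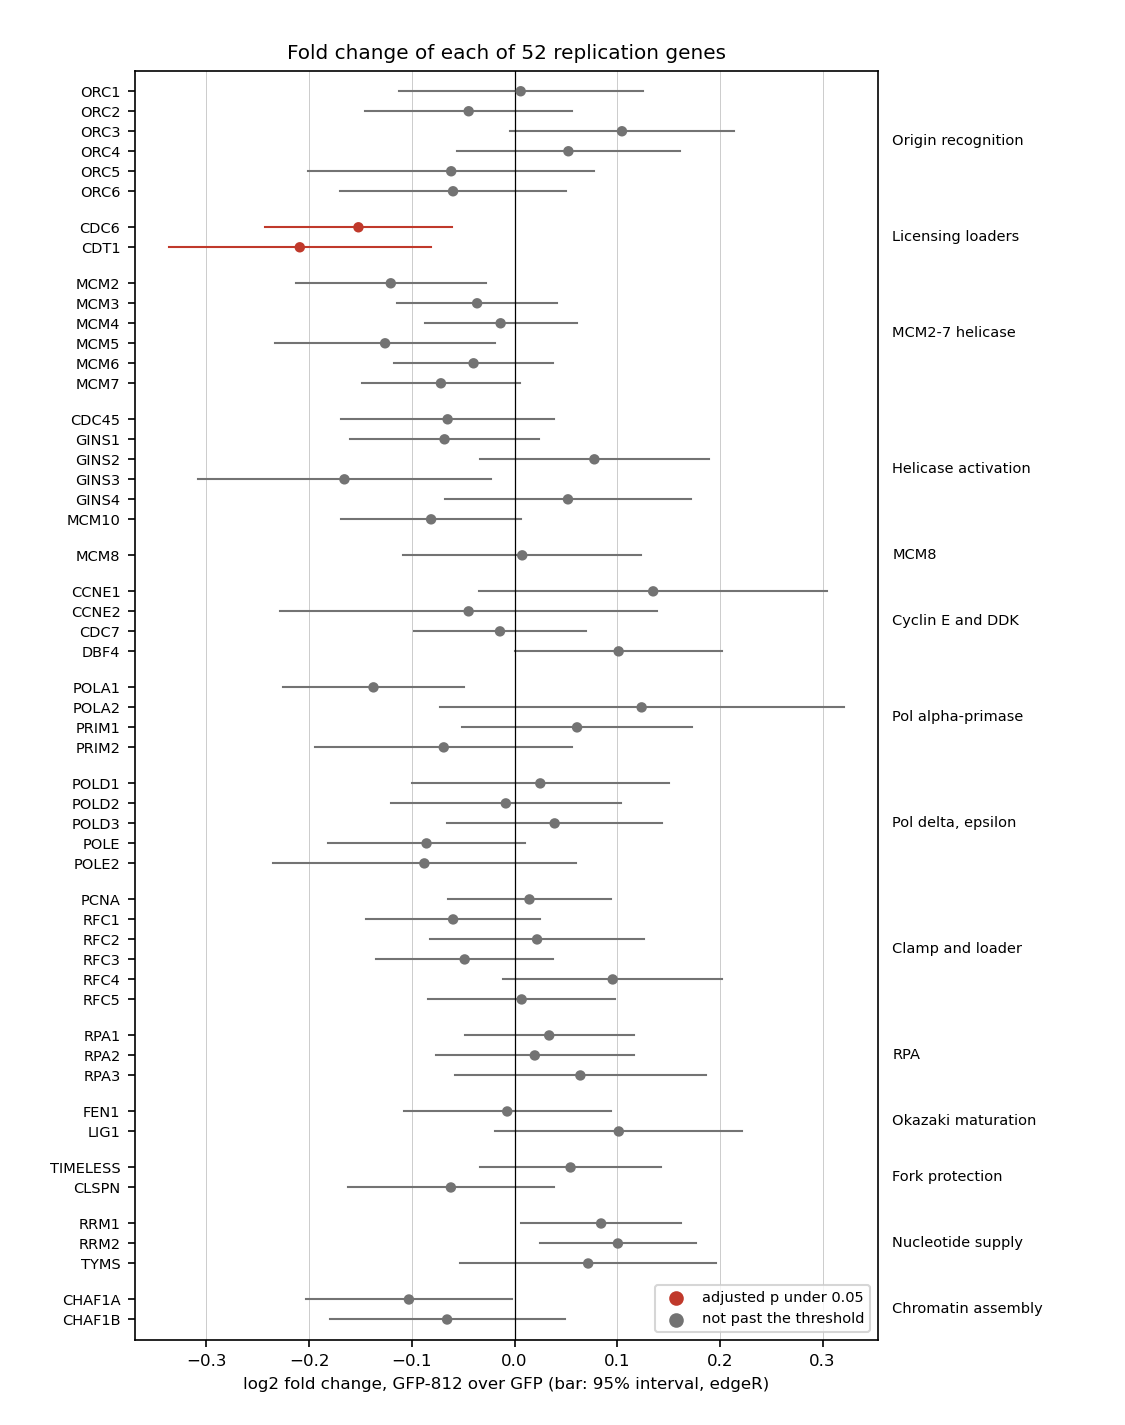
Log2 fold change of each gene, GFP-812 over GFP, with its 95% interval derived from the edgeR test, by role. CDC6 and CDT1 (red) passed an adjusted p under 0.05, and the other 50 genes (grey) did not.

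CDC6 is the ATPase that joins the origin recognition complex to load the MCM ring (ENSG00000094804, hg38 chromosome 17, 40287879 to 40304657, plus strand). It stood at 33.89, 29.98 and 32.49 FPKM in GFP-812 replicates 1, 2 and 3 and at 37.11, 34.58 and 36.28 FPKM in GFP replicates 1, 2 and 3. Every GFP-812 library lay below every GFP library, with GFP-812 replicate 1 close to GFP replicate 2. The means were 32.1 ± 1.98 and 36.0 ± 1.29 FPKM (SD, n = 3 each). CDC6 fell by 10.0% (edgeR log2 fold change -0.15, SE 0.0455, adjusted p = 0.0443). The call was lost without GFP-812 replicate 2 (log2 fold change -0.10, adjusted p = 0.428), GFP-812 replicate 3 (-0.16, 0.146) or GFP replicate 1 (-0.13, 0.256) and kept without each of the others.

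CDT1 brings the MCM ring to the origin and is destroyed once S phase begins (ENSG00000167513, chromosome 16, 88803789 to 88809258, plus strand). Its level was 17.1, 15.8 and 16.6 FPKM in GFP-812 replicates 1, 2 and 3 and 19.1, 19.2 and 19.4 FPKM in the GFP replicates. The GFP libraries sat tightly together and above all 3 GFP-812 libraries. The means were 16.5 ± 0.691 and 19.2 ± 0.146 FPKM (SD, n = 3 each), a drop of log2 fold change -0.21 (SE 0.0637, edgeR adjusted p = 0.0483). Counts behind these values were 673 to 860 per library. Its call was lost on leaving out any single library, at adjusted p from 0.0566 (without GFP replicate 3) to 0.287 (without GFP-812 replicate 2), and the log2 fold change then ran from -0.24 to -0.17. Both CDC6 and CDT1 also missed the threshold with upper-quartile scaling (adjusted p = 0.0761 and 0.0739) and in limma on log2(FPKM + 1) (0.209 and 0.1003) or log2(FPKM + 0.1) (0.209 and 0.0971). CDT1 also missed it without the low-count filter (edgeR adjusted p = 0.0659). Neither CDC6 nor CDT1 overlaps another gene of the table.

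**Figure D3:**
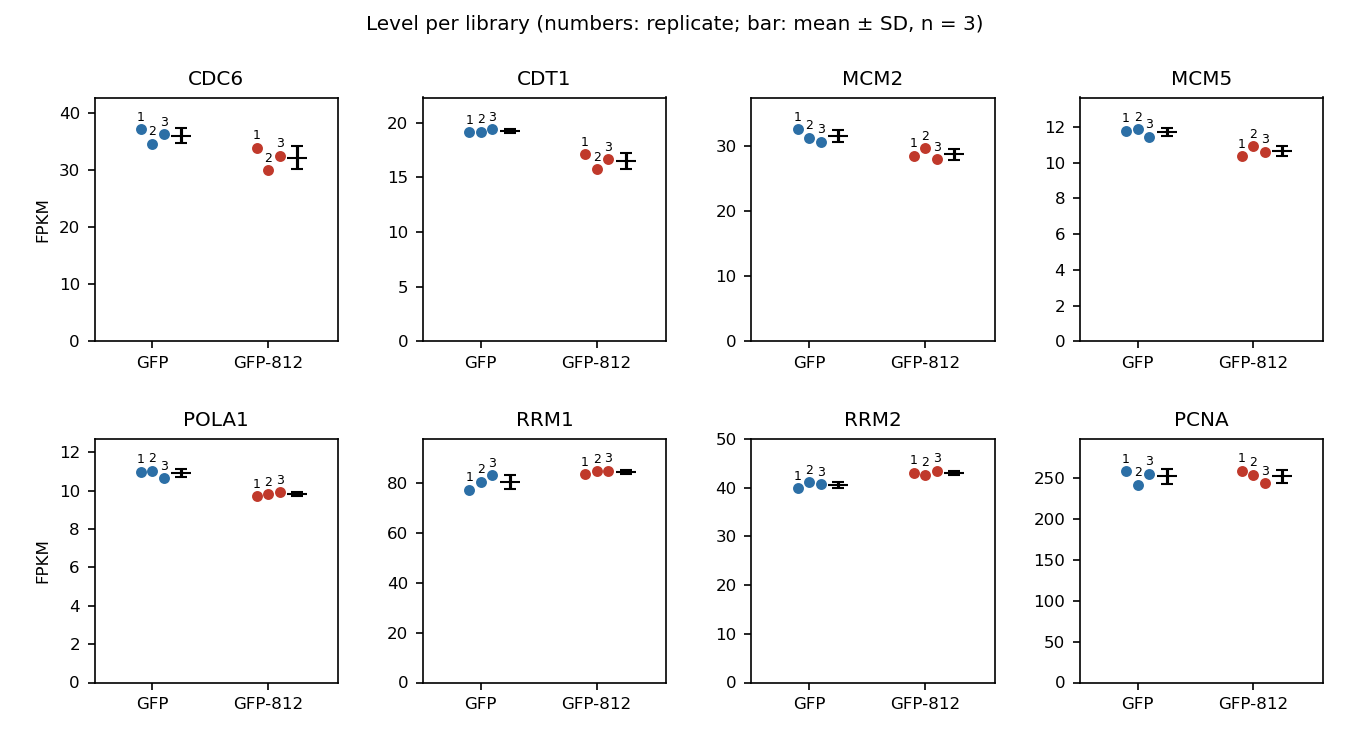
FPKM in each library for 8 members, with axes starting at 0, replicate numbers above the points and mean ± SD (n = 3) beside them. CDC6, CDT1, MCM2, MCM5 and POLA1 are lower in all 3 GFP-812 libraries than in any GFP library, RRM1 and RRM2 higher, and PCNA overlaps.

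The origin recognition complex, which binds origins as a ring of ORC1 to ORC5 joined by ORC6, held 6 members at 9.19 to 19.1 FPKM, and none passed the test. Log2 fold changes were -0.06 to 0.10. ORC3, a core subunit, stood at 18.9, 18.8 and 19.1 FPKM in GFP-812 and at 17.6, 17.7 and 17.9 FPKM in GFP replicates 1, 2 and 3. The groups did not overlap, and the fitted difference was 0.10 on the log2 scale (SE 0.0543, edgeR adjusted p = 0.334). ORC5 was highest in GFP replicate 1 at 15.04 FPKM, while the other 5 libraries lay between 12.3 and 12.9 FPKM. ORC6, which helps recruit the helicase, had a log2 fold change of -0.06 and overlapping groups.

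The helicase subunits MCM2 to MCM7, which form a ring with 1 copy of each, all had fitted log2 fold changes below 0, between -0.13 and -0.01, and none passed the test. With upper-quartile scaling, or without GFP-812 replicate 2, 5 of the 6 lay below 0. MCM5 had the lowest value, at 10.4, 10.9 and 10.6 FPKM in GFP-812 and 11.8, 11.9 and 11.5 FPKM in GFP replicates 1, 2 and 3 (log2 fold change -0.13, SE 0.0534, edgeR adjusted p = 0.202). MCM2 stood at 28.5, 29.6 and 27.9 FPKM in GFP-812 and at 32.5, 31.2 and 30.6 FPKM in GFP (log2 fold change -0.12, SE 0.0461, edgeR adjusted p = 0.143), and passed without GFP replicate 3 (adjusted p = 0.0467). Neither gene's groups overlapped, nor did those of MCM6 and MCM7, while MCM3 and MCM4 overlapped. MCM4 had the fold change nearest 0, at 49.3 ± 1.16 against 50.2 ± 0.582 FPKM (SD, n = 3 each).

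Levels of the 6 subunits were unequal, and the proportions between them were close in the 2 groups. Of their summed FPKM, MCM3 made up 27.9% ± 0.489 in GFP-812 and 27.6% ± 0.331 in GFP, MCM7 24.1% ± 0.0625 and 24.4% ± 0.314, and MCM5 3.17% ± 0.101 and 3.34% ± 0.0653 (SD, n = 3 each). The MCM5 share was lower in each GFP-812 library (3.06%, 3.26% and 3.19%) than in each GFP library (3.32%, 3.41% and 3.29%). The order rests on the length a count is divided by. The table divides by all exonic bases of a gene, which for MCM5 are 7268 and for MCM4 9852 bases, whereas their principal transcripts in GENCODE 29 measure 3534 and 4183 bases. On the table's FPKM the subunits ran from 11.2 (MCM5) to 95.1 (MCM3), a spread of 8.52-fold. Scaled to the principal transcript and the library total in the same way, they ran from 23.0 (MCM5) to 123.4 (MCM7), a spread of 5.37-fold, and MCM4 moved from the fourth to the second place at 117.2. MCM5 was the lowest and MCM2 the next lowest under both lengths.

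**Figure D4:**
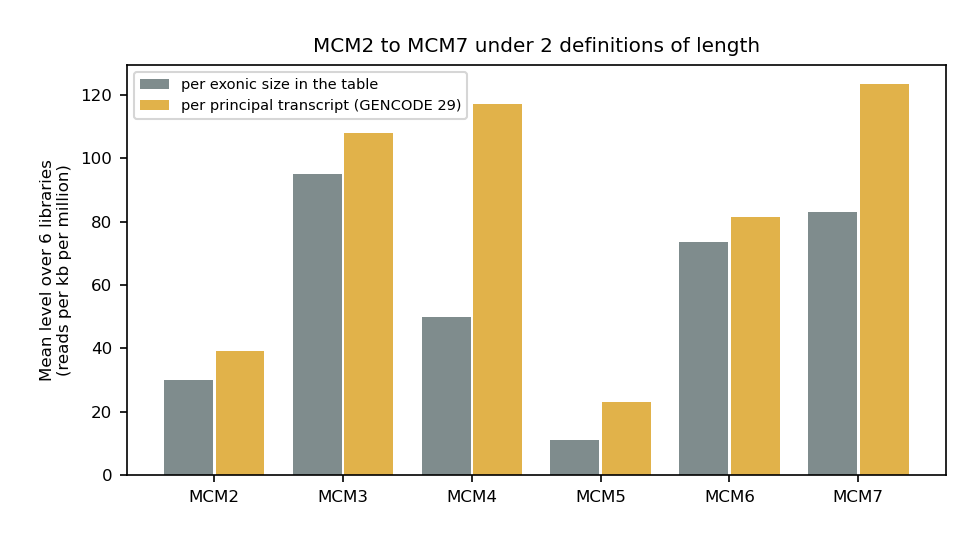
Mean level of MCM2 to MCM7 over the 6 libraries, scaled to length and library total as FPKM is, with length taken as the exonic size in the table (grey) or as the principal transcript in GENCODE 29 (yellow). MCM5 is lowest under both, and MCM4 goes from 49.8 to 117.2.

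Of the genes that turn the loaded ring into an active helicase (CDC45, GINS1 to GINS4 and MCM10), none of 6 passed the test. CDC45, the helicase partner brought in at origin firing, stood at 30.3 ± 1.04 against 31.9 ± 0.763 FPKM (SD, n = 3 each). GINS3 had the lowest fold change and the lowest FPKM of the 6 (scaled to principal transcripts, GINS4 lay lower, at 16.1 against 17.96). It stood at 7.61, 7.80 and 7.11 FPKM in GFP-812 and 8.94, 7.80 and 8.72 FPKM in GFP replicates 1, 2 and 3. The groups met at 7.80 FPKM in replicate 2 of each, and the fitted value was -0.17 (SE 0.0711, edgeR adjusted p = 0.211). GINS2 and GINS4, subunits of the same complex, had fitted values of 0.08 and 0.05. MCM10, a factor that stimulates helicase activation, was at 28.5 ± 0.312 against 30.4 ± 0.586 FPKM without overlap (fitted value -0.08, edgeR adjusted p = 0.356). MCM8, a related helicase known for homologous recombination, differed little, at 8.14 ± 0.219 and 8.17 ± 0.129 FPKM (SD, n = 3 each).

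None of the 4 genes for cyclin E and the CDC7 kinase passed. CDC7, the kinase that phosphorylates the MCM ring, was the most abundant of them at 60.6 FPKM. Its activator DBF4 stood at 25.04, 26.04 and 23.70 FPKM in GFP-812 and at 24.45, 23.26 and 22.56 FPKM in GFP replicates 1, 2 and 3 (log2 fold change 0.10, SE 0.0502, edgeR adjusted p = 0.306). CCNE1, a cyclin that activates CDK2 at the entry to S phase, had the highest fitted fold change of all members, 0.14 (SE 0.0845, edgeR adjusted p = 0.447). Its GFP replicate 3 (11.1 FPKM) lay among the GFP-812 libraries (10.7 to 11.9 FPKM) and above the other GFP libraries (9.85 and 9.89 FPKM). CCNE2 was low at 5.23 FPKM, with overlapping groups.

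Among the polymerases, POLA1, the catalytic subunit of polymerase alpha, which extends the RNA primer, came closest to the threshold. It stood at 9.71, 9.83 and 9.92 FPKM in GFP-812 and at 11.0, 11.1 and 10.7 FPKM in GFP replicates 1, 2 and 3. The groups were apart by more than the range within either. edgeR fitted a log2 fold change of -0.14 (SE 0.0439), at an adjusted p of 0.0621. POLA1 passed in DESeq2 (adjusted p = 0.0353), with total-count scaling (0.0316) and without GFP replicate 3 (0.0167). Its partner POLA2 had a fitted value of 0.12 at the fewest counts of any member (SE 0.0982, edgeR adjusted p = 0.575). The primase subunits PRIM1, which makes the primer, and PRIM2 had values of 0.06 and -0.07. Of the 5 subunits of polymerases delta and epsilon, the main lagging and leading strand enzymes, none passed. Their log2 fold changes were -0.09 to 0.04, lowest for POLE2 and POLE and highest for POLD3, and POLD2 had the lowest FPKM at 9.54. Scaled to principal transcripts, POLD2 was instead the highest of the 5 at 35.4, its exonic size being 3.71 times its principal transcript.

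PCNA and the 5 subunits of replication factor C, which opens the clamp and sets it on DNA, did not pass either. PCNA stood at 259.3, 254.1 and 244.0 FPKM in GFP-812 and at 258.7, 241.9 and 255.6 FPKM in GFP replicates 1, 2 and 3. The groups overlapped throughout, and the interval of its change ran from a 4.41% fall (-4.41%) to a 6.74% rise. RFC4, a small loader subunit, was higher in all GFP-812 libraries (28.5, 28.0 and 27.5 FPKM) than in the GFP libraries (26.8, 26.0 and 26.5 FPKM), and RFC1, the large subunit, lower (27.7, 27.8 and 27.4 against 28.7, 29.3 and 29.3 FPKM). Their log2 fold changes were 0.10 (SE 0.0531, edgeR adjusted p = 0.376) and -0.06 (SE 0.0421, edgeR adjusted p = 0.510). RFC4 overlaps EIF4A2 on the opposite strand, whose count is 386.6% of its own, so its value is uncertain.

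Single-strand binding and flap processing genes were close between groups. The 3 subunits of replication protein A, which coats unwound DNA, had values of 0.02 to 0.06, and RPA3 stood at 18.64 ± 0.960 against 17.96 ± 0.810 FPKM (SD, n = 3 each; edgeR adjusted p = 0.657). FEN1, the nuclease that removes flaps from Okazaki fragments, was at 63.7 ± 4.45 against 64.5 ± 4.15 FPKM. LIG1, the ligase that seals them, was at 5.34, 5.44 and 5.04 FPKM in GFP-812 and 4.97, 4.96 and 4.94 FPKM in GFP replicates 1, 2 and 3. The LIG1 groups did not overlap by a narrow margin (edgeR log2 fold change 0.10, SE 0.06, adjusted p = 0.413). The fork protection genes TIMELESS and CLSPN, the latter an adaptor of CHEK1 activation, had values of 0.05 and -0.06.

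The 3 genes of deoxynucleotide supply all had fitted values above 0 in every setting run, and these were 0.07 to 0.10 in the main edgeR test. The settings reuse the same libraries, so their shared sign is not separate support. In the main test 8728 of 16834 genes also lay above 0. None passed with all 6 libraries. RRM2, the small subunit of ribonucleotide reductase, stood at 43.1, 42.7 and 43.5 FPKM in GFP-812 and at 39.8, 41.1 and 40.7 FPKM in GFP replicates 1, 2 and 3. The groups did not overlap (edgeR log2 fold change 0.10, SE 0.0377, adjusted p = 0.132). RRM1, the large subunit, stood at 83.5, 84.7 and 84.9 FPKM against 77.3, 80.5 and 83.2 FPKM (log2 fold change 0.08, SE 0.0388, edgeR adjusted p = 0.255). GFP replicate 3 lay closest to the GFP-812 libraries, and without it RRM1 passed as higher. TYMS, which makes thymidylate, was at 22.0 ± 0.737 against 21.1 ± 0.610 FPKM (SD, n = 3 each), and its groups overlapped. The TYMS gene overlaps ENOSF1 on the opposite strand, whose count is 95.9% of its own, so its value is uncertain.

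CHAF1A and CHAF1B are the members from chromatin assembly factor 1, which deposits histones behind the fork. Both were lower in all GFP-812 libraries without passing. CHAF1A stood at 26.6, 26.9 and 25.8 FPKM in GFP-812 and at 30.9, 27.7 and 27.3 FPKM in GFP replicates 1, 2 and 3, with GFP replicate 1 apart from the rest (log2 fold change -0.10, SE 0.0501, edgeR adjusted p = 0.295). CHAF1B had a value of -0.07.

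Other replication factors outside the 52 gave 3 calls of 35, all lower (8.57%, against 2.67% of all genes tested called lower). Among the 8549 genes at or above the lowest member level, 6.29% were called in either direction. The list was chosen with earlier results of these data known, and the 3 calls are not read as a result about the list. ATAD5, which unloads PCNA, stood at 15.2, 14.9 and 16.1 FPKM in GFP-812 and 17.7, 18.6 and 17.8 FPKM in GFP replicates 1, 2 and 3, and fell by 0.22 on the log2 scale (SE 0.0482, edgeR adjusted p = 0.00365). TICRR and TOPBP1, both needed to recruit CDC45 at origin firing, fell by 0.19 (SE 0.05, edgeR adjusted p = 0.0142) and 0.14 (SE 0.0412, edgeR adjusted p = 0.0331). In all 3 genes every GFP-812 library lay below every GFP library. The median over the 35 genes was -0.03, and geminin (GMNN), the inhibitor of CDT1, was at 64.8 ± 2.54 against 63.1 ± 2.25 FPKM (SD, n = 3 each). The ATAD5 call was lost on leaving out GFP-812 replicate 2 (edgeR adjusted p = 0.0892). That of TICRR was lost on leaving out any of 3 libraries, replicates 2 and 3 of GFP-812 and replicate 1 of GFP (0.0675 to 0.201). That of TOPBP1 was lost without each library other than GFP replicate 3 (0.0584 to 0.235) and with upper-quartile scaling (0.0625).

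The list of G1/S control genes, 39 in all, also held checkpoint kinases: CHEK1, ATR and the G2 checkpoint kinase WEE1. Of these 39 genes, 1 fell (2.56%, against 2.67% of all genes tested) and 38 did not pass. CDC25A, the phosphatase that activates CDK2, stood at 43.7, 43.8 and 44.3 FPKM in GFP-812 and 51.4, 48.6 and 47.4 FPKM in GFP replicates 1, 2 and 3 (log2 fold change -0.15, SE 0.0432, edgeR adjusted p = 0.0348). Its call was lost without any 1 GFP-812 library or GFP replicate 1 (edgeR adjusted p 0.098 to 0.295) and with upper-quartile scaling (0.0634), and without GFP replicate 3 this list held 6 calls. Fitted values of 30 of the 39 genes lay below 0 (76.9%, against 48.2% of all genes tested), with a median of -0.07. These shares were not matched for level or length, and the list was chosen with earlier results of these data known. Signs also move with scaling: the median over all genes tested was 0.007 with TMM and 0.022 with upper-quartile scaling. Among the E2F factors, the widest values were those of the repressor E2F8, with means of 5.32 ± 0.125 in GFP-812 and 6.28 ± 0.0651 FPKM in GFP (SD, n = 3 each; fitted value -0.23, edgeR adjusted p = 0.134), and of the activator E2F3, at 24.9 ± 0.367 and 27.5 ± 0.245 FPKM (-0.13, edgeR adjusted p = 0.0974). E2F1, the best known activator, was at 12.9 ± 0.267 against 14.1 ± 0.775 FPKM (-0.12, edgeR adjusted p = 0.451).

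Members with an E2F match in the promoter had a median log2 fold change of -0.06 (20 genes) and those without one 0.01 (25 genes), given without a test. On both sides there were genes of either direction: ORC3, LIG1, POLA2 and TYMS, above 0, held a match, and MCM10, RFC1, CHAF1A and CHAF1B, below 0, held none. Fold change across the 52 genes went weakly with exonic length (Spearman's rho -0.16) and not with level (0.03). Over 12563 genes tested at a mean of at least 1 FPKM, the same values were -0.19 and -0.05. These are correlations across genes, which share libraries and are not independent replicates. GFP replicate 1 held the highest level for 17 of the 52 members (32.7%, against 19.7% of all genes at a mean of at least 1 FPKM), and GFP-812 replicate 3 the lowest for 13 (25%, against 16.1%).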

How the data were processed

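Poly(A) RNA was sequenced in 6 libraries. The submitters' processing notes name HISAT2 2.2.1 and HTSeq 0.6.1, as well as cutadapt 1.9.1, FastQC 0.10.1 and build hg38. Whether counting used strand, and which annotation release, is not given in the sources used here. 17 of 52 members overlap a gene holding at least 5% of their counts, and these values are less certain. The largest such counts, as a share of the member's own, were for PRIM1 (NACA, same strand, 1224.3%) and CCNE2 (INTS8, 505.4%). RFC4 (EIF4A2, 386.6%), GINS2 (GSE1, 122.3%), CHAF1B (MORC3, same strand, 104.4%) and TYMS (ENOSF1, 95.9%) came next. The authors deposited raw counts and, per the file headers, FPKM for 61806 genes. Counts divided by exonic size and column total returned 100% of the deposited FPKM within 0.0051. Exonic sizes, per the file headers, are in bases.

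The main test was edgeR 4.0.16 in R 4.3.3 on the deposited counts (filterByExpr, TMM, group alone, quasi-likelihood, 2-sided). Standard errors are not an edgeR output: each is the size of its log2 fold change divided by the square root of its F statistic. Intervals use these standard errors and edgeR's degrees of freedom. Groups came from sample titles. Members and lists were chosen with earlier results of these data known. Named were members past the threshold, those with the smallest p and the highest and lowest level in each role, and listed genes past it. MCM4 and other members named beyond this were chosen after their values were seen. Alternatives were other scalings, filters, DESeq2 1.42.0, limma 3.58.1 on log2 values of the FPKM plus a pseudocount, a replicate block and leaving out each library. The edgeR step was also run on counts simulated from the levels and spread fitted to these data. Such a run cannot show whether replicates were separate cultures. Levels per principal transcript were added after the data were examined.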

Additional observations from a re-analysis of the deposited data

How the results depend on the processing

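The number of members called lower, 2 in the main test, was 3 with DESeq2 or total counts, 1 without a low-count filter and 0 with upper-quartile scaling or with limma on log2(FPKM + 1) or log2(FPKM + 0.1). It ran from 0 to 3 when each library was left out, and that of members called higher from 0 to 1 (RRM1, without GFP replicate 3). The member median log2 fold change was 0.004186 with upper-quartile scaling and -0.0261 to 0.00946 with a library left out, positive without GFP replicate 1. Calls among all genes, 647 in the main test, numbered 5 and 7 with limma at the pseudocounts of 1 and 0.1 and 209 (without GFP-812 replicate 2) to 1317 (without GFP replicate 3) with a library left out. The called genes split 69.4% lower with TMM and 54.8% lower with upper-quartile scaling. Other replication genes called numbered 5 with total counts, 0 with either limma fit and 0 to 5 with a library left out. G1/S control genes called numbered 2 with total counts, 0 with upper-quartile scaling, 0 with either limma fit and 0 to 6 with a library left out. Members without overlap numbered 21 to 24 with a library left out (40.4% to 46.2%). Of the 12984 genes at a mean of at least 1 FPKM, not matched for level, 29.8% to 37.6% then did not overlap either. MCM8 changed sign around 0: -0.005132 with total counts, -0.005436 and -0.006052 with limma at 1 and 0.1, and -0.00490 to 0.0312 with a library left out. The cause of these changes was not tested.

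Replicate numbers are shared between groups, but same-numbered libraries did not deviate together (correlations across genes of 0.0318, -0.0102 and 0.00614 for numbers 1, 2 and 3). With the replicate block, edgeR called 777 genes, again CDC6 and CDT1 among members, and 2 G1/S control genes. Depth limits the low genes most: POLA2, at 252 to 368 counts per library, had the largest standard error.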
